A study of Rattus norvegicus with 6 samples.

Results

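Rffl (rififylin), its closest relative Rnf34 and 6 genes of the caspase-8 apoptosis pathway, Casp8, Casp6, Casp9, Fadd, Cflar and Ripk1, were examined in the colons of AOM-treated S.LEW congenic and S rats. The probes of these genes were found by matching the accession of each array probe to rat RefSeq genes, which gave 13 of the 30367 probes on the array and 8 of the 15168 genes matched. All 13 probes are in the normalized table of 23997 probes that the authors deposited. Of the 8 genes, 3 were read by 1 probe and 5 by 2 probes.

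The S rat is the inbred Dahl salt-sensitive strain (SS/Jr), a model of hypertension. The S.LEW congenic strain, S.LEW(10)x12x2x3x5, carries on the S background a short stretch of chromosome 10 from the normotensive Lewis (LEW) rat, and Rffl is the only protein-coding gene that the study places in that stretch. All 6 rats, 3 of each strain, were males on a low-salt diet that received azoxymethane (AOM), a colon carcinogen, as 2 injections of 15 mg per kg, a week apart and the first at the age of 6 weeks, and gave colon RNA at 30 weeks. There was 1 array per rat, named C1, C2 and C3 for the congenic rats and S1, S2 and S3 for the S rats, no untreated rat was analysed here, and the labels do not say whether the pieces taken for RNA held tumor.

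Apoptosis begins from outside the cell when ligands of the tumor necrosis factor family engage death receptors. The adaptor Fadd then brings procaspase-8 to the receptor, where it cleaves itself and goes on to activate executioner caspases, while Cflar, a caspase-8 relative with no protease activity, competes for the same adaptor, and the kinase Ripk1 steers the complex between survival, apoptosis and necroptosis. Rffl and Rnf34 are RING-type E3 ubiquitin ligases that are known to bind the death receptor caspases and mark them for degradation, and in the colon this pathway takes part in the turnover of the epithelium and in the death of lymphocytes.

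Rffl lies in the chromosome segment in which the strains differ, so the bases in front of its transcription starts are shown first. RefSeq lists a pair of starts for it on the minus strand of chromosome 10 in the GRCr8 assembly, and promoter entries were in hand for 6 of the 8 genes. Casp8 and Rnf34 have no entry. The 250 bases before each start are printed 5′ to 3′ with every CG dinucleotide (CpG) in capitals, and they are those of the reference rat, not of the S or LEW strain. The start of Cflar, the gene with the largest difference between the strains below, is shown beside them.
Rffl, chr10:68301226-68301475, minus strand: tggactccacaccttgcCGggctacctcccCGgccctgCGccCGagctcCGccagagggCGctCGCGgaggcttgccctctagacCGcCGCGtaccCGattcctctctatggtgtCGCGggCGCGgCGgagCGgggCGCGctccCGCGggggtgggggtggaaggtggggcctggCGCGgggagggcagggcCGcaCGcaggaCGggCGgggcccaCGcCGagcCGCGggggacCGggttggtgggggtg
Rffl, chr10:68262353-68262602, minus strand: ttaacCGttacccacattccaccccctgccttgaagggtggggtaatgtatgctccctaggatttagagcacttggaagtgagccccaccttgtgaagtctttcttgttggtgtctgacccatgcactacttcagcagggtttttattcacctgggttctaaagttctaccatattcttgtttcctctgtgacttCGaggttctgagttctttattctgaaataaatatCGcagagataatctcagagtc
Cflar, chr9:67679299-67679548, plus strand: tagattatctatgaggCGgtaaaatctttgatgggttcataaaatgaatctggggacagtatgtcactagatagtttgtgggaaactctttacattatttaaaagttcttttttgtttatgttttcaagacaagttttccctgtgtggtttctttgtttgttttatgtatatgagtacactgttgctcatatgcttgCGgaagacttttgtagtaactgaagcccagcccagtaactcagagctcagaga
The first Rffl window holds 33 CpG with a GC content of 78%, and 96.4% of the 33469 promoter windows of the same length hold fewer. The second Rffl window holds 3 CpG at 44.4% GC, and 28.6% of the windows hold fewer. The Cflar window holds 2 CpG at 36% GC, with 18.1% of the windows below it, where the median window holds 5. The windows of Casp6, Ripk1, Casp9 and Fadd hold 10, 15, 20 and 24 CpG. The first Rffl start thus has far more CpG than the median window and the second fewer than it, and the array probes do not say which start a transcript used.

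The values below are the normalized log2 signals of the deposited table, in which 1 unit is a 2-fold difference, and a log2 fold change is the congenic mean minus the S mean. Signals of different probes are not comparable as levels. Of the 13 probes, 12 were well above background on all 6 arrays, the exception being a Casp9 probe. The strains were compared with limma over all 23997 probes with Benjamini-Hochberg adjustment. The p-values measure the spread between these rats, and an exact permutation test of 1 probe in 3 against 3 rats cannot give a p below 0.10. In these bulk samples, fewer cells of a type and less RNA per cell cannot be told apart.

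The arrays of the S rats were not alike. Across probes the correlation of S2 was 0.967 to 0.976 with each congenic array, 0.937 with S3 and 0.900 with S1. The 7 T and B lymphocyte markers with a tested probe (of 13 listed) had a summed linear signal of 1332 to 1889 in the congenic rats and 1760 in S2, but 52364 in S1 and 40023 in S3. Among the defining markers Cd3e, Cd79a and Ms4a1 had no tested probe, and Cd5 and Cxcr5 were not well above background on some arrays. The 8 tested markers of colon epithelium (of 9) were well above background on every array and summed to 164682 to 210112 in the congenic rats against 98899 to 121706 in the S rats. The sums were 3838 to 4630 in the congenic and 4211 to 7267 in the S rats for macrophages. Their markers split, with 3 genes higher in the congenic mean, Cd163 and Mrc1 among them, and 3 lower, Csf1r and Aif1 among them. Smooth muscle markers summed to 541829 to 608070 in the congenic rats, with S2 above them at 641114 and S1 and S3 below them at 177169 and 373721, so that S1 and S3 were lowest here. Skeletal muscle markers summed to 19285 to 24138 in the congenic rats, with S2 above them at 38921 and S1 and S3 below them at 9251 and 17745. Of these markers Myh1 was not well above background on some arrays. The sums of the strains did not overlap for the 3 tested adipocyte markers, at 368 to 1115 in the congenic and 162 to 291 in the S rats, nor for the 2 tested endothelial markers, at 1153 to 1367 and 1837 to 3118. Taken singly, the endothelial markers Pecam1 and Cdh5 did overlap between the strains, as did the adipocyte marker Lep. The part of these tissues in the results below was not tested. C1 and the 3 S arrays were read in one scan and C2 and C3 in another, so within a scan the congenic strain rests on C1 alone. The log2 fold changes of the member probes and the medians of the pathway lists below are therefore also given without S2 and without S1 and S3. A fit without S1 and S3 leaves S2 alone for its strain, and the fit then assumes that S2 varies as the congenic rats do, just as C1 is assumed to vary like the S rats within its scan.

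None of the 13 probes differed between the strains at an adjusted p under 0.05, with adjusted p between 0.389 and 0.861 from limma, and none at an unadjusted p under 0.05. Over all 23997 probes 13% lay under an unadjusted 0.05 (8.58% higher and 4.4% lower in the congenic strain), 5.58% did so with a 2-fold difference, and 0% lay under an adjusted 0.05, the smallest adjusted p being 0.0843. The methods' t-test also gave 0 adjusted calls over all probes, with 2594 at an unadjusted p under 0.05. The median log2 fold change was -0.21 over the 13 probes and 0.01 over all probes, with 5 of the 13 higher and 8 lower in the congenic mean. The spread was larger in the S rats than in the congenic rats at 9 of the 13 probes, a count for which the share over all probes was not taken.

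**Figure D1:**
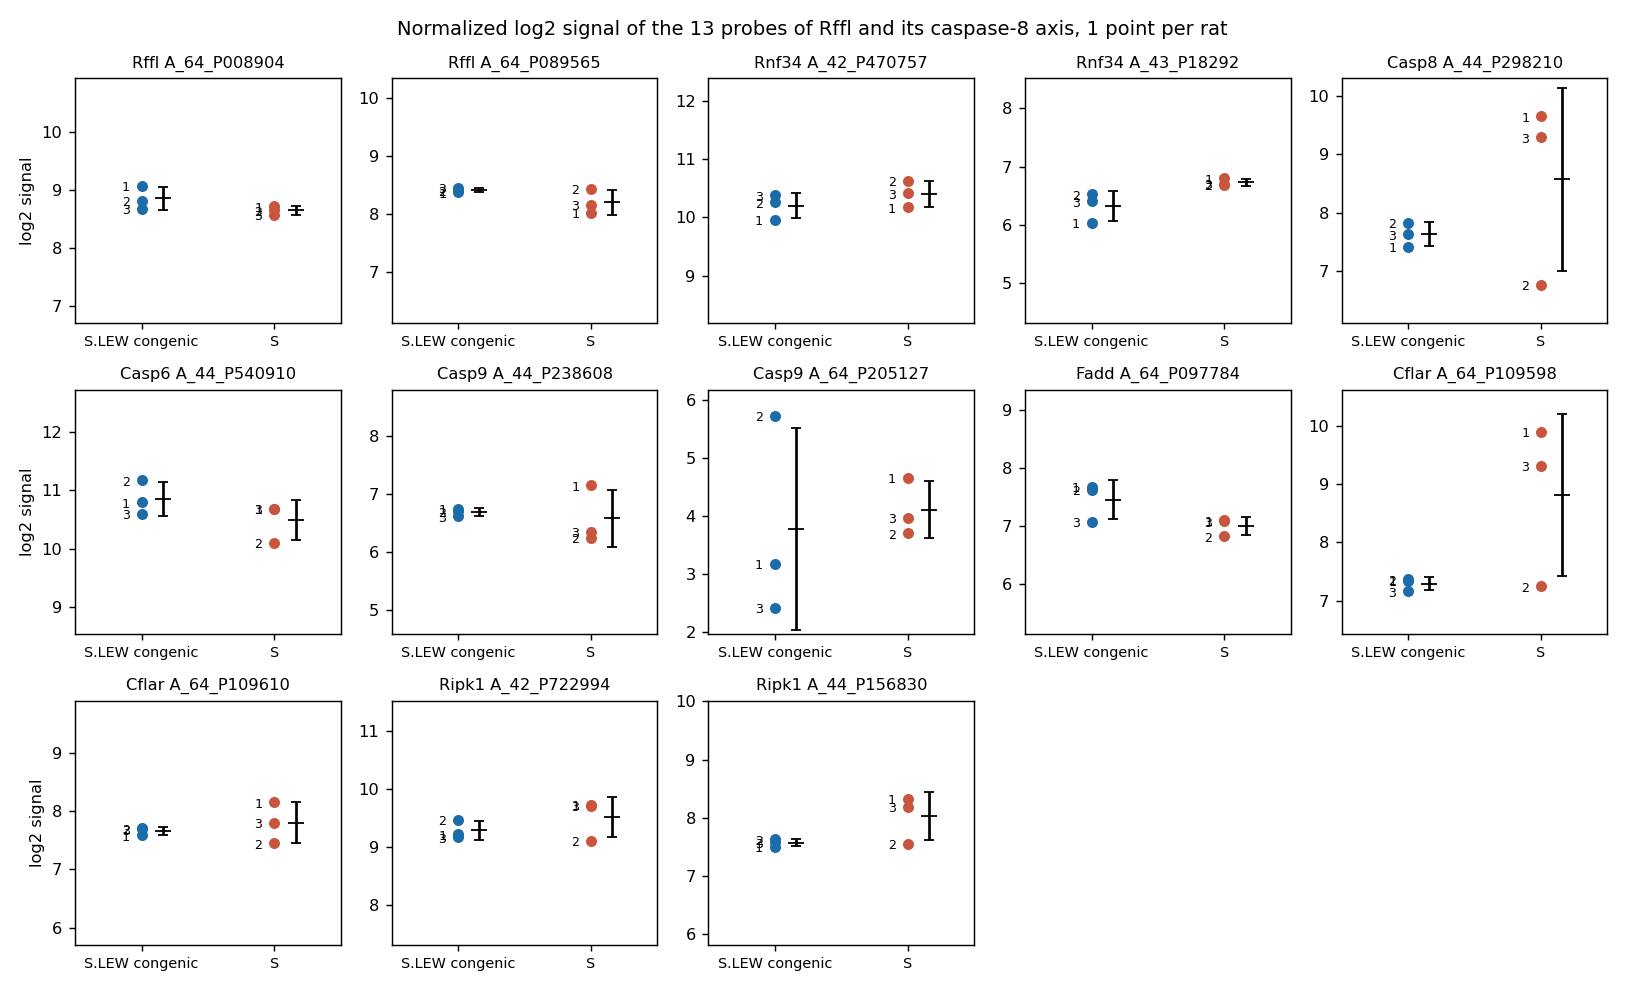
Normalized log2 signal of the 13 probes (vertical axes, each spanning at least 4 log2 units) in the S.LEW congenic and S rats, with 1 numbered point per rat and bars for the mean ± SD of 3 rats. S1 and S3 lie apart from S2 for Casp8, for the first Cflar probe and for Ripk1, while both Rffl probes stay within 1 log2 unit.

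Rffl was read in every colon. The first Rffl probe (A_64_P008904) gave log2 signals of 9.07, 8.82 and 8.68 in C1, C2 and C3, and of 8.72, 8.66 and 8.57 in S1, S2 and S3. C1 and C2 lay above all S rats, but C3 lay below S1, so the strains overlapped. The log2 fold change was 0.21 with a 95% interval of -0.23 to 0.65 (adjusted p = 0.595 from limma), that is, from 1.18-fold lower to 1.56-fold higher in the congenic strain. The second Rffl probe (A_64_P089565) gave 8.38, 8.41 and 8.45 in C1, C2 and C3, and 8.02, 8.44 and 8.16 in S1, S2 and S3. Here S1 and S3 were below every congenic rat, and S2 lay among them. The difference was again 0.21, with an interval of -0.24 to 0.65 (adjusted p = 0.596 from limma).

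Leaving out S rats moved the second Rffl probe more than the first. Without S1 and S3 the log2 fold change of the first probe was 0.20 (standard error 0.25) and that of the second was -0.03 (standard error 0.19). Without S2 they were 0.21 and 0.32, with adjusted p of 0.424 and 0.152 from limma. Within the scan that holds both strains, C1 against the 3 S rats gave 0.42 (standard error 0.26) and 0.17 (standard error 0.29). The first probe minus the second within an array was 0.69, 0.41 and 0.23 in C1, C2 and C3, and 0.70, 0.22 and 0.42 in S1, S2 and S3. This gap varied as much within a strain as between strains, with a mean of 0.44 in each. The intervals from all 6 rats reach 1.56-fold and 1.57-fold higher in the congenic strain and do not show that Rffl was equal in the strains.

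Rnf34, the other ligase of the pair, had lower means in the congenic strain at both probes. Its brighter probe (A_42_P470757), spotted 10 times on each array, gave 9.96, 10.26 and 10.38 in C1, C2 and C3, and 10.18, 10.62 and 10.41 in S1, S2 and S3. The strains overlapped, with C1 lowest and S2 highest, and the log2 fold change was -0.21 (adjusted p = 0.642 from limma, with a standard error of 0.21). Without S2 the log2 fold change was -0.096, and without S1 and S3 it was -0.43. The 10 spots of an array had an SD of 0.0194 to 0.0801. The SD was larger between rats, at 0.22 in the congenic and 0.23 in the S strain. With 1 array per rat, this larger spread also holds differences between arrays. The dimmer Rnf34 probe (A_43_P18292) gave 6.03, 6.53 and 6.41 in C1, C2 and C3, and 6.80, 6.69 and 6.71 in S1, S2 and S3. Every congenic rat was below every S rat, which held for no other of the 13 probes, and 5.33% of all probes showed this pattern with the congenic rats lower and 17.7% in either direction. The strains differed by a log2 fold change of -0.41 with an interval of -0.89 to 0.06 (adjusted p = 0.41 from limma, exact two-sided permutation p = 0.10). It was -0.43 without S2 and -0.37 without S1 and S3.

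Fadd, the adaptor, gave 7.67, 7.63 and 7.08 in C1, C2 and C3, and 7.10, 6.83 and 7.08 in S1, S2 and S3. C1 and C2 stood above all S rats, and C3 stood among them. Its log2 fold change was 0.45 (adjusted p = 0.423 from limma, with a standard error of 0.23), and it was 0.37 without S2 and 0.63 without S1 and S3. Ripk1 was read by a probe spotted 10 times (A_42_P722994), with 9.23, 9.47 and 9.18 in C1, C2 and C3, and 9.73, 9.12 and 9.71 in S1, S2 and S3. S1 and S3 were the highest and S2 the lowest of the 6 rats. The log2 fold change was -0.23 (adjusted p = 0.639 from limma, with a standard error of 0.23), and the spots of an array had an SD of 0.0342 to 0.0874. Without S2 the log2 fold change was -0.43, and without S1 and S3 it was 0.17. The second Ripk1 probe (A_44_P156830) gave 7.50, 7.63 and 7.58 in C1, C2 and C3, and 8.33, 7.55 and 8.19 in S1, S2 and S3. Again S1 and S3 were highest, while S2 lay among the congenic rats. Its log2 fold change was -0.45 with an interval of -1.05 to 0.14 (adjusted p = 0.447 from limma). It was -0.69 without S2 (adjusted p = 0.0297 from limma, in the fit that called 23.1% of all probes) and 0.02 without S1 and S3.

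Casp8, the initiator protease of the pathway, gave 7.41, 7.83 and 7.63 in C1, C2 and C3, and 9.65, 6.76 and 9.29 in S1, S2 and S3. The congenic rats lay close together, whereas S1 and S3 stood above all of them and S2 below all of them. The mean was 7.62 ± 0.21 (SD, n = 3) in the congenic strain and 8.57 ± 1.6 (SD, n = 3) in the S strain. Its log2 fold change was -0.95 with an interval of -2.73 to 0.84 (adjusted p = 0.556 from limma). Its direction followed the choice of S rats, since it was -1.85 without S2 (adjusted p = 0.00758 from limma) and 0.86 without S1 and S3. The fit without S2, a rat singled out from these same data, called 23.1% of all probes.

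Cflar was the gene with the largest mean difference among the 8. The probe for the first of its transcripts on the array (A_64_P109598) gave 7.34, 7.37 and 7.16 in C1, C2 and C3, and 9.90, 7.25 and 9.32 in S1, S2 and S3. S2 lay within the congenic range, and S1 and S3 lay far above it. The means were 7.29 ± 0.11 (SD, n = 3) and 8.82 ± 1.4 (SD, n = 3), a log2 fold change of -1.53 with an interval of -3.11 to 0.05 (adjusted p = 0.389 from limma), or 2.89-fold lower in the congenic mean. Without S2 it was -2.32 (adjusted p = 0.00508 from limma, in the fit that called 23.1% of all probes). Without S1 and S3 it was 0.04. The probe for another Cflar transcript (A_64_P109610) gave 7.59, 7.71 and 7.69 in C1, C2 and C3, and 8.16, 7.45 and 7.81 in S1, S2 and S3. S1 and S3 were again the highest rats and S2 the lowest, over a narrower range. Here the log2 fold change was -0.14 (adjusted p = 0.768 from limma, with a standard error of 0.23). Leaving out S2 gave -0.32, and leaving out S1 and S3 gave 0.21.

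The pair of Cflar probes therefore moved unequally between arrays. The first minus the second was -0.24 in C1, -0.34 in C2, -0.53 in C3 and -0.20 in S2, but 1.74 in S1 and 1.51 in S3. The change in this difference was -1.39 between the strains, with every congenic rat below every S rat (exact two-sided permutation p = 0.10, the smallest that 3 against 3 rats can give, and 0.25 adjusted over the 5 genes with a pair of probes). The Ripk1 pair showed the opposite sign and a smaller change, 0.22, with the congenic rats at 1.60 to 1.84 and the S rats at 1.40 to 1.57 (exact permutation p = 0.10, adjusted 0.25). For Rffl, Rnf34 and Casp9 the change between strains was -0.0006, 0.21 and 0.44, with exact permutation p of 1, 0.3 and 0.7.

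Among the members, the executioner and mitochondrial caspases did not share the pattern of S1 and S3. Casp6, an executioner, gave 10.79, 11.17 and 10.60 in C1, C2 and C3, and 10.69, 10.10 and 10.69 in S1, S2 and S3. S2 was the lowest rat, and C3 lay below S1 and S3. The log2 fold change was 0.36 with an interval of -0.25 to 0.98 (adjusted p = 0.524 from limma). It was 0.17 without S2 and 0.76 without S1 and S3. Casp9, the initiator of the mitochondrial route, gave 6.74, 6.70 and 6.62 in C1, C2 and C3, and 7.15, 6.25 and 6.35 in S1, S2 and S3 at its brighter probe (A_44_P238608). The congenic rats lay between S1 and the other S rats, and the log2 fold change was 0.11 (adjusted p = 0.861 from limma, with a standard error of 0.27). Leaving out S2 gave -0.062, and leaving out S1 and S3 gave 0.44. The other Casp9 probe (A_64_P205127) was well above background on C2, S1 and S3 only, at 5.73, 4.65 and 3.97, and its log2 fold change of -0.33 had an interval of -2.35 to 1.68. That value was -0.54 without S2 and 0.071 without S1 and S3.

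**Figure D2:**
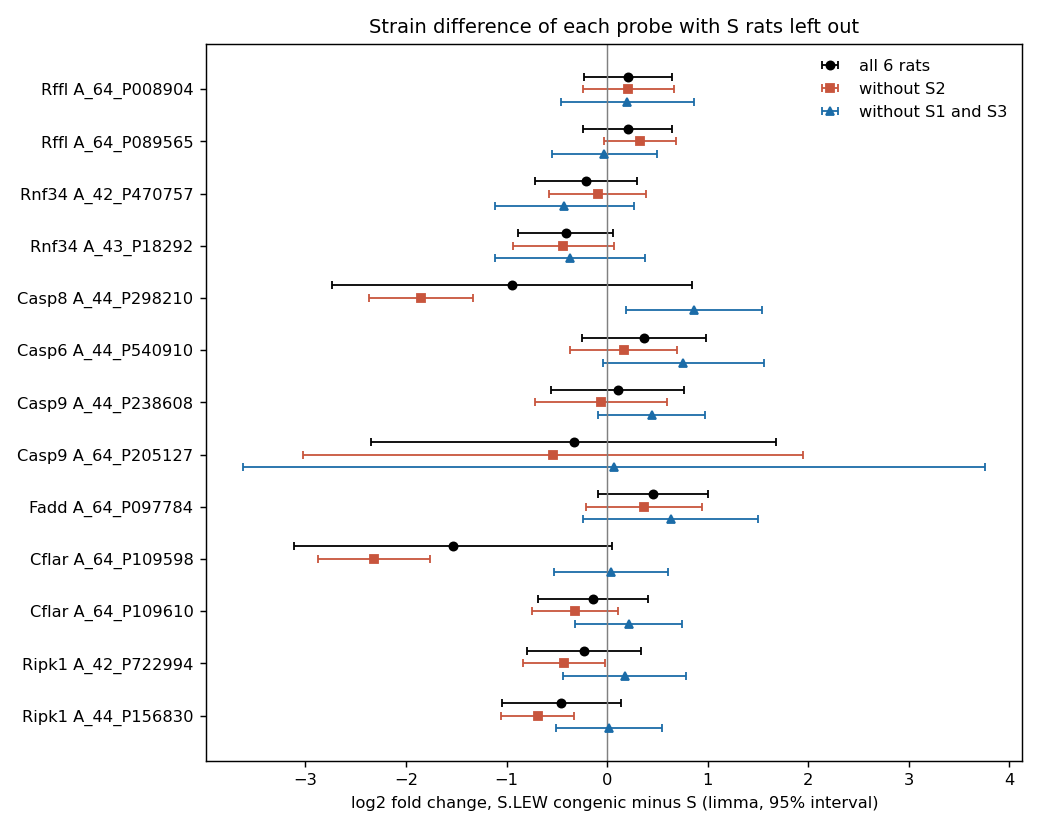
Log2 fold change of each probe, S.LEW congenic minus S (horizontal axis), from limma with all 6 rats (circles), without S2 (squares) and without S1 and S3 (triangles), with 95% intervals. The values for Casp8, for the first Cflar probe and for Ripk1 move from below 0 without S2 to above 0 without S1 and S3, while those of the first Rffl probe stay between 0.20 and 0.21.

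Across the 13 probes, S1 and S3 were both above the other 4 rats at 6, namely the Casp8 probe, both probes of Cflar, both of Ripk1 and the dimmer Rnf34 probe. This order held at 25.8% of all 23997 probes. S2 was the lowest of the 6 rats at 6 of the 13 probes, and S1 the highest at 7. The shares of all probes with these orders were not taken, so the counts do not set the members apart from other genes. Without S2, 3 of the 13 probes were called at an adjusted p under 0.05 (Casp8, the first Cflar probe and the second Ripk1 probe), all lower in the congenic strain, where 23.1% of all probes were called and 10.6% were called lower. Without S1 and S3 none was called, beside 0% of all probes. The T and B lymphocyte markers had the same order, with S1 and S3 above the other 4 rats for 7 of 7 genes. Their part in the Casp8, Cflar and Ripk1 values was not tested.

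**Figure D3:**
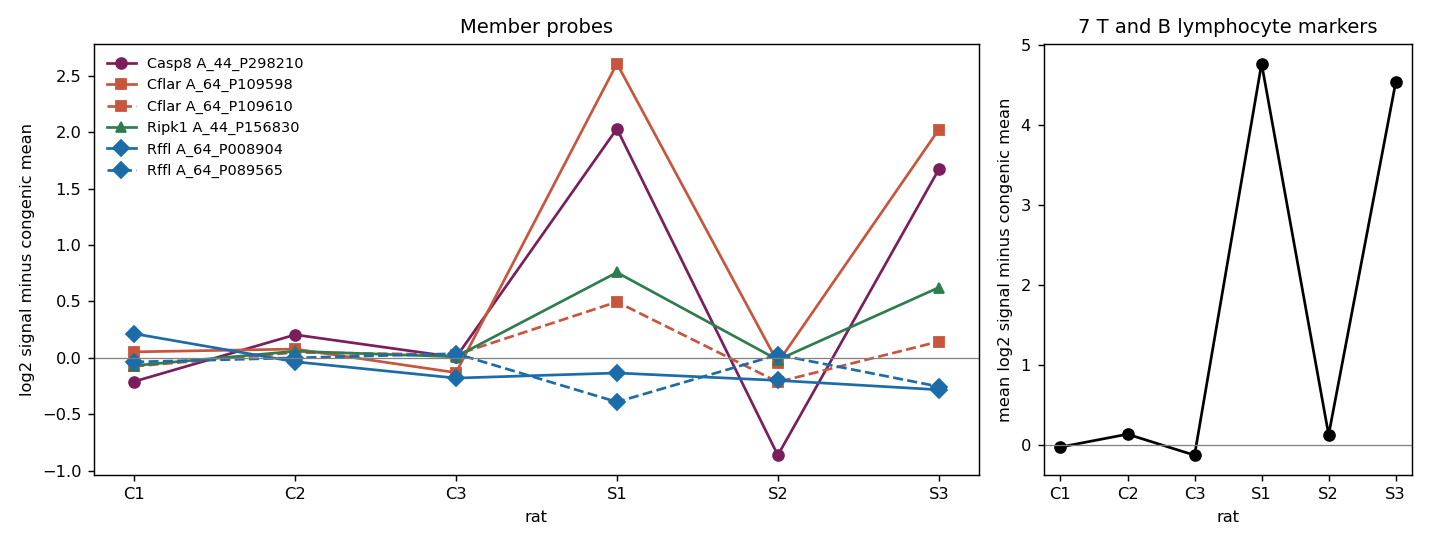
Left, log2 signal of 6 probes of Casp8, Cflar, Ripk1 and Rffl in each rat minus the mean of the congenic rats. Right, the mean log2 signal of the 7 tested T and B lymphocyte markers on the same kind of scale. Casp8 and the first Cflar probe stand highest in S1 and S3, where the markers are highest too. Both Rffl probes lie below the congenic mean in S1 and S3, but the first Rffl probe does so in S2 as well.

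The genes most like Rffl over the 6 arrays were sought among the brightest probes of 12417 other genes, by Pearson's r with the mean of the centred Rffl probes. This mean was 0.19, 0.09 and 0.03 in C1, C2 and C3, and -0.16, 0.02 and -0.17 in S1, S2 and S3. The closest were Vom1r38, a vomeronasal receptor gene (r = 0.996), Cdhr5, a cadherin of the epithelial brush border (r = 0.995), Myh14, a nonmuscle myosin (r = 0.990), Sgta, a cochaperone (r = 0.989) and Zbtb7c, a zinc finger protein (r = 0.988). With 6 arrays, 194 genes reached an r of 0.95 or more, so these values are a description. Among the other members the brightest probe of Fadd had an r of 0.64 with Rffl, and those of Ripk1, Casp8 and Cflar had -0.75, -0.80 and -0.87 over the same 6 arrays, which share the S1 and S3 order described above.

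The surrounding pathway was described by lists of genes, each gene read by its brightest probe. Over the 12418 genes with a tested probe the median log2 fold change was 0.03, with 1251 genes higher and 547 lower in the congenic strain at an unadjusted p under 0.05. No gene of any list passed an adjusted p of 0.05. The 8 members had a median of -0.05, with 4 means higher and 4 lower and none under an unadjusted p of 0.05. Their median was -0.08 without S2 and 0.32 without S1 and S3.

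Among death receptors and their ligands, 6 of 8 genes had a tested probe and the median log2 fold change was -0.09, or 0.15 over all probes of the list. The median of the 6 genes was -0.12 without S2 and 0.05 without S1 and S3. Tnfrsf25, a death receptor known from T cells, gave 7.61, 7.57 and 7.44 in C1, C2 and C3, and 9.05, 7.97 and 8.71 in S1, S2 and S3. The strains did not overlap, and S1 and S3 were highest. Its log2 fold change was -1.03 (adjusted p = 0.302 from limma, with a standard error of 0.30), and -0.43 without S1 and S3. Tnfsf10, the ligand TRAIL, was higher in all 3 congenic rats with a log2 fold change of 0.78 (adjusted p = 0.378 from limma), but its dim probe was well above background on C1, S1 and S3 only.

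Of the genes of the receptor complexes and of necroptosis, 15 of 20 had a tested probe. Their median log2 fold change was -0.40, with 3 means higher and 12 lower, 0 under an unadjusted p of 0.05, and S1 and S3 above the other rats for 10 of the 15 genes (66.7%, against 25.7% of all genes). Without S2 the median was -0.64 and 5 of the 15 genes were called lower at an adjusted p under 0.05, in a fit that called 10.6% of all probes lower, and without S1 and S3 the median was 0.25. Map3k7, the kinase TAK1 that acts with Ripk1, was the only one of these whose strains did not overlap, with 9.07 to 9.27 in the congenic and 9.28 to 9.84 in the S rats. Its log2 fold change was -0.40 (adjusted p = 0.433 from limma). Every congenic rat was below every S rat at 5.33% of all probes. Birc3, a ubiquitin ligase of the receptor complex chosen here after its values were seen, gave 10.50, 10.54 and 10.38 in C1, C2 and C3, and 12.65, 10.02 and 12.51 in S1, S2 and S3, with S1 and S3 highest and S2 lowest, as for Casp8.

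The other caspases of the pathway list, 6 of 7 with a tested probe, had a median log2 fold change of 0.38, with 4 means higher and none under an unadjusted p of 0.05. This median was 0.09 without S2 and 0.38 without S1 and S3. Over all probes of the list, with all rats, it was 0.25. S1 and S3 stood above the other 4 rats for 1 of these 6 genes and for 3 of the 8 members. These are 16.7% and 37.5%, beside 25.7% of all genes, and counts this small do not tell the lists apart.

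The mitochondrial arm, with all 14 genes tested, had a median log2 fold change of 0.13, and 3 genes were higher and 1 lower at an unadjusted p under 0.05. Of all 12418 genes, 1251 were higher and 547 lower at this limit. The median of the arm was 0.10 without S2 and 0.20 without S1 and S3. S1 and S3 stood above the other 4 rats for 6 of the 14 genes (42.9%, against 25.7% of all genes). Endog, a mitochondrial nuclease, lay at 9.36 to 9.56 in the congenic and 8.46 to 8.86 in the S rats without overlap, with a log2 fold change of 0.84 (adjusted p = 0.248 from limma, with a standard error of 0.19). Cycs, cytochrome c, had log2 fold changes of 0.78 and 0.73 at its probes (adjusted p = 0.276 at both, from limma), again with every congenic rat above every S rat. Dffa, the inhibitor of a caspase-activated nuclease, was higher by 0.48 and 0.57 at its probes, also without overlap (adjusted p = 0.356 and 0.324 from limma). Every congenic rat was above every S rat at 12.4% of all probes. Bid, the protein through which caspase-8 reaches the mitochondrion, was lower by a log2 fold change of -1.16 (adjusted p = 0.381 from limma), with 10.51 in S1 and 9.99 in S3 against 8.76 in S2 and 8.21 to 8.96 in the congenic rats. Its value was -0.17 without S1 and S3, whereas that of Endog was 0.60. Bcl2l1, an inhibitor of this route, was read by 4 probes with log2 fold changes of 0.33, 0.22, -0.63 and 0.22, of which only those at 0.22 had strains that did not overlap.

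Among proteins known as substrates or partners of Rffl and Rnf34, 7 of 8 genes had a tested probe and the median log2 fold change was 0.31, with 6 means higher. The median was 0.44 without S2 and 0.19 without S1 and S3. Cftr, the chloride channel whose misfolded form Rffl marks for degradation, gave 12.52, 12.84 and 12.17 in C1, C2 and C3, and 11.52, 11.87 and 11.20 in S1, S2 and S3. The strains did not overlap at either of its probes, and the log2 fold changes were 0.98 and 1.67 (adjusted p = 0.283 and 0.266 from limma). Ppargc1a, a coactivator of mitochondrial genes and a substrate of Rnf34, was higher by 0.86 (adjusted p = 0.357 from limma) without overlap, but only by 0.19 without S1 and S3. Mavs, the mitochondrial adaptor of RNA sensing, was higher by 0.31 (adjusted p = 0.5 from limma), also without overlap, where 12.4% of all probes had every congenic rat higher. The epithelial markers given above were also higher in the congenic rats, in the mean for 8 of 8 genes and at an unadjusted p under 0.05 for 6, and their part in these values was not tested.

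**Figure D4:**
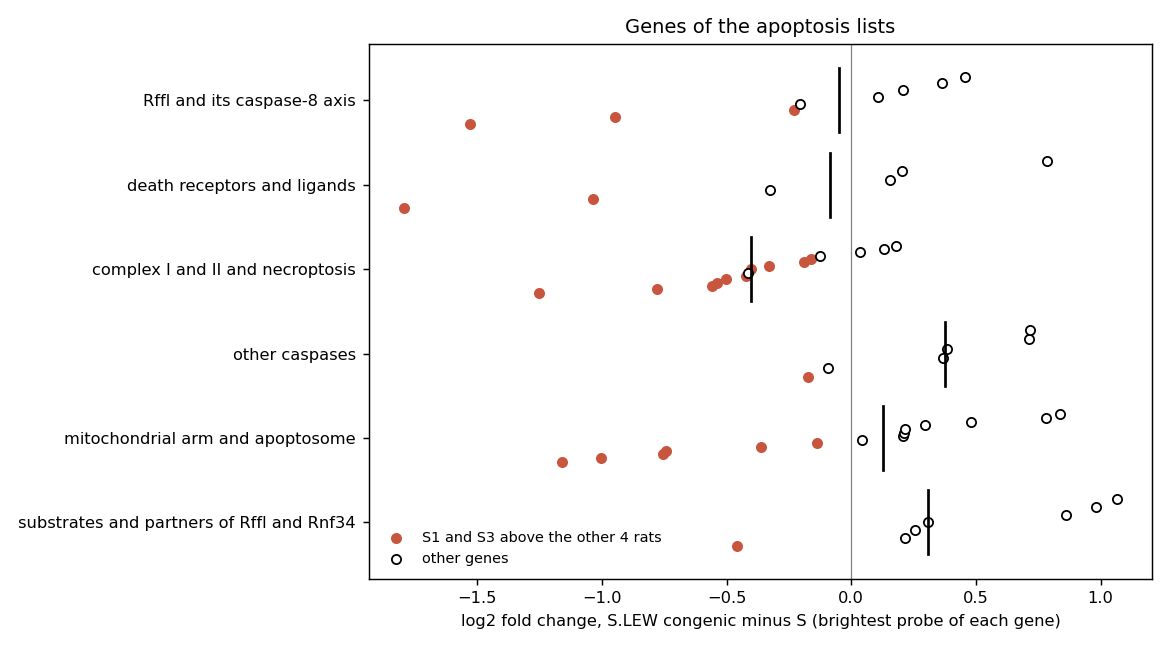
Log2 fold change, S.LEW congenic minus S (horizontal axis), of the brightest probe of each tested gene in the member set and the 5 pathway lists (rows), with a vertical bar at each list's median. Filled points are genes with S1 and S3 above the other 4 rats, all of them below 0. They make up 10 of 15 genes of the receptor complex list, 6 of 14 of the mitochondrial arm and 3 of the 8 members. In the other lists they are 2 of 6 death receptors and ligands, 1 of 6 other caspases and 1 of 7 substrates and partners. Over all genes the share is 25.7%.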

How the data were processed

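Colon RNA of 3 S.LEW congenic and 3 S rats was labeled with Cy3 and hybridized to Agilent rat 4x44K arrays. The authors read the images with Agilent Feature Extraction 11.0.1.1 (submitters' processing notes), and the deposited scanner files give each of 42877 non-control spots a background-corrected intensity. In GeneSpring the authors applied quantile normalization and a detection filter (3 or more of the 6 samples), and the values used here are the resulting deposited log2 values of 23997 probes. They correlated at 0.9986 or more with the log2 scanner intensities on every array. The array number limits the precision of each value, and no spot was saturated.

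The congenic and S rats were compared without covariates by lmFit and eBayes of limma 3.58.1 (R 4.3.3), two-sided, with Benjamini-Hochberg adjustment over all probes. Detection is the scanner software's well-above-background flag. Genes were named through RefSeq accessions (18005 of 30367 probes matched), and array coordinates are not given because the array's build is not that of the annotation used, GRCr8. The text names all probes of the 8 genes, in each pathway list the genes with an unadjusted p under 0.05 or strains that do not overlap (up to 6) and otherwise the 2 genes with the smallest p, and the 5 genes most like Rffl. Some genes that this rule names are not reported here. The genes, lists and alternatives were chosen with earlier results of these data known. Fits were tested on simulated data in which every array had the spread of the congenic rats. That simulation does not cover the spread among the S rats.

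Alternatives were scanner intensities under quantile or 75th percentile scaling, normexp background (offset 50), other filters, flagged spots kept, array weights, the methods' t-test, a block for the scan or for the replicate number, and rats left out. Plots used matplotlib 3.10.9.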

Additional observations from a re-analysis of the deposited data

How the results depend on the processing

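No alternative brought the first Rffl probe under an adjusted p of 0.05 or turned its direction, and with 1 rat left out its log2 fold change ran from 0.10 to 0.30, that of the second Rffl probe from 0.11 to 0.32. The second Rffl probe stood at -0.027 without S1 and S3, and at 0.25 (adjusted p = 0.0461 from limma) with array weights. Those weights gave S3 29.2 and S2 0.12, their estimation stopped before it converged, and they put 7 of the 13 probes under an adjusted p of 0.05, 9 under an unadjusted one, and 2 of these by 2-fold or more, where equal weights gave 0 in each case. At an unadjusted p under 0.05 there were 2 probes with the 75th percentile scaling, 1 with normexp, 1 with the scan as a block, 1 without S1 and S3 and 0 to 4 with 1 rat left out. With a 2-fold change besides there were 1 with the 75th percentile, 1 with normexp and 0 to 2 with 1 rat left out, and at an adjusted p 0 to 3, the highest counts all without S2. The study housed 1 S and 1 congenic rat per cage, but nothing says that rats of the same number were cage mates. Same-numbered rats had correlations of -0.016, -0.13 and -0.061 in how they departed from their strain's mean. Differently numbered rats ran from -0.221 (C1 and S3) to 0.264 (C2 and S3). These values cannot show whether cage mates were alike. The replicate block gave 1 probe under an unadjusted 0.05, which also passed the 2-fold limit, and 0 after adjustment. Without S1 and S3 the direction turned for Casp8 (0.86), the first Cflar probe (0.043), the second Cflar probe (0.21), Ripk1 (0.17 and 0.018) and the dim Casp9 probe (0.071), and the last was also above 0 with normexp (0.031) and array weights (0.0014). With 1 rat left out the Casp9 probes ran from -0.062 to 0.39 and from -1.31 to 0.34, and the second Cflar probe from -0.32 to 0.035. The filter on all 6 arrays leaves out the dim Casp9 probe. Signal over background limits that probe and the one of Tnfsf10. The cause of these shifts was not tested.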
